A study of Mus musculus with 6 samples.

Results

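The regions described here are autosomal sites that were closed in fibroblasts, open in reprogramming intermediates and closed again in induced pluripotent stem cells (iPSCs). They are called transient regions below. They were chosen from their own accessibility values, as autosomal regions with fewer than 25 normalized counts in mouse embryonic fibroblasts (MEFs) at day 0, at least 100 in each of the day 8, day 9 and day 10 intermediates, and fewer than 25 in iPSCs. A normalized count is the number of ATAC-seq reads in a region divided by the size factor of its library. This rule was met by 2757 of 218231 autosomal regions, or 1.26%, in a table of 223596 regions. The day 12 library was not used in the choice.

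The cells were female hybrids, with a Musculus mother, whose X chromosome held a GFP reporter, and a Castaneus father. MEFs were transduced with the lentiviruses tetO-FUW-OSKM, which carries the reprogramming factors Oct4, Sox2, Klf4 and c-Myc under control of doxycycline, and FUW-M2rtTA, and were sorted by FACS for an inactive GFP-bearing X chromosome. The day 0 library was taken directly after that sort. Reprogramming then ran in mouse ESC medium with LIF, doxycycline and ascorbic acid. Cells positive for the surface marker SSEA1 were isolated on days 8, 9, 10 and 12 as intermediates. The iPSCs were derived from picked colonies, with doxycycline and ascorbic acid withdrawn after picking. Each of the 6 time points had 1 library, so that no difference over time could be set against replicate error and no p-values are given. The SSEA1 sort separates the intermediates from both ends of the series, and so does the presence of doxycycline and ascorbic acid. The culture medium differed too, since MEFs grew in MEF medium and the later cells in ESC medium with LIF. Time, sorting, medium, doxycycline and ascorbic acid therefore cannot be told apart. All 6 sample titles carry the label GFPneg. In the table a region is identified by its row number and chromosome, with no gene or coordinate. Cell identity could therefore not be checked against marker genes, and regions are named by row.

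In ATAC-seq a transposase inserts sequencing adapters into DNA where chromatin is open, mostly at promoters and enhancers, and reads from these sites are counted. OCT4, SOX2 and KLF4 are known for binding sites that are packed into nucleosomes in fibroblasts, and chromatin in reprogramming cells passes through states that belong neither to the starting cell nor to the pluripotent one. In bulk libraries a lower count can come from fewer cells with an open site or from a less open site in each cell, and these cannot be told apart.

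Depth ranged from 22067333 to 32844411 reads in regions. All deposited values were whole multiples of 1 read per library, so that reads per region could be recovered. The library of MEF day 0 had a size factor of 0.498, against 0.798 to 1.40 in the others, so that 25 normalized counts were 12.45 reads there and 19.9 to 35.0 reads elsewhere. The lowest value in every library was 1 read, which may stand for 0 or 1.

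The course of the transient regions was measured first without any scaling between libraries, as their share of all autosomal reads. This share was 0.0643% in MEF day 0. In the intermediates it was 2.81% at day 8, 2.55% by day 9, 2.10% by day 10 and 0.997% by day 12, and it ended at 0.137% in iPSC. A set that made up 1.26% of autosomal regions thus held more than its share of reads at days 8, 9 and 10, and less at day 12 and at both ends. The contrast of days 8, 9 and 10 with both ends follows from the choice of regions. The rule set no order among days 8, 9 and 10 and did not use day 12.

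The median transient region had 12.0 normalized counts in MEF day 0. It had 226 at day 8, 183 on day 9, 153 at day 10 and 67.5 at day 12, and 13.8 in iPSC. The upper quartiles at days 8, 9 and 10 were 312, 248 and 207, and the highest values 1681, 1186 and 1045. Accessibility was therefore moderate in most of these regions and high in few. The median number of reads per region was 194 to 257 in the intermediates of days 8 to 10, 75 at day 12, 11 in iPSC and 6 in MEF day 0. At the lowest value of 1 read were 214 of the regions in MEF day 0 and 61 in iPSC.

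**Figure D1:**
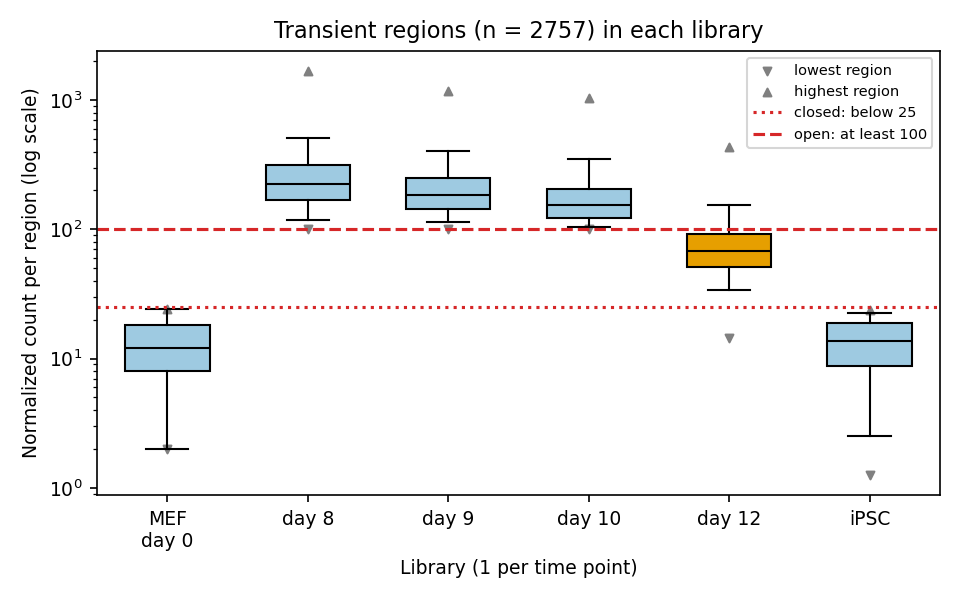
Normalized counts (log axis) of the 2757 transient regions in each of the 6 libraries, with boxes from the lower to the upper quartile, a line at the median, whiskers from the 5th to the 95th percentile and triangles at the lowest and highest region. Day 12, in orange, was not used to choose the regions, and its median of 67.5 lay between 153 at day 10 and 13.8 in iPSC.

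Counting error was small against the distance between the open and the closed levels. In all 2757 regions, the upper limits of the exact 95% Poisson intervals in MEF day 0 and iPSC lay below the lower limits at days 8, 9 and 10. The same held with fragments, that is pairs of reads, as the unit. These intervals cover counting error only, and the rule itself required the separation. Many regions lay close to a cutoff nevertheless, with 562 of them within 0.1 of a cutoff on the log2 scale. Of the regions outside, 10640 failed exactly 1 of the criteria, 5248 of them in iPSC alone and 3973 in MEF day 0 alone. Of these 10640, 687 failed by less than 0.1. Just inside, several regions tied at 100.3 normalized counts at day 10, and the first 3 by row number were in rows 2488, 16883 and 32954. Just outside were 3 regions with 99.9 at day 9, in rows 93300, 95464 and 109559. The values on both sides of the cutoffs were thus nearly equal, and the set is a cut through a continuous range.

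To ask how far each library's value followed from the others, the rule was applied with 1 library left out, and the value of that library was read. Of 2905 regions chosen without day 8, 94.9% had at least 100 normalized counts at day 8, against 27.5% of all autosomal regions. Of 2934 chosen without day 9, 94.0% had at least 100 at day 9, against 25.8%. Of 3851 chosen without day 10, 71.6% had at least 100 at day 10, against 25.1%. The open state was therefore shared between neighboring days and least so at day 10. Autosomal regions that were open on the other 2 days, whatever their levels in MEF day 0 and iPSC, had 94.9%, 95.4% and 92.2% at 100 or more on days 8, 9 and 10. Of these 3 days, only day 10 had a clearly lower share among the regions closed at both ends. The closed ends were read in the same way. Of 6730 regions chosen without MEF day 0, 41.0% were below 25 in MEF day 0, and so were 40.6% of all autosomal regions but 16.9% of the 47270 that were open at days 8 to 10. Of 8005 regions chosen without iPSC, 34.4% were below 25 in iPSC, against 36.1% of all and 14.2% of those open at days 8 to 10. Sites closed at one end were thus closed at the other end more often than sites open in the intermediates in general, and at a share near that of all autosomal regions, which was above or below it depending on cutoff and scaling. Among the 8005 regions that were closed in MEF day 0 and open at days 8 to 10, 38.0% had 25 to below 100 normalized counts in iPSC and 27.5% had 100 or more.

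Within the intermediates accessibility of the transient regions declined from day to day. The highest of the 3 values was at day 8 in 1962 regions (71.2%), at day 9 in 565 (20.5%) and at day 10 in 230 (8.34%). The counts fell from day 8 to 9 and again to day 10 in 1577 regions, and rose at both steps in 125. The median log2 difference was -0.29 from day 8 to day 9 and -0.23 from day 9 to day 10, against -0.10 and -0.01 over all autosomal regions. Regions that met the same cutoffs at days 8 to 10 and in MEF day 0, but had at least 100 in iPSC, are called kept regions below. Their median differences were -0.21 and -0.11. Their levels were higher than those of transient regions, with medians of 248, 215 and 195 normalized counts at days 8, 9 and 10. The decline between days 8 and 10 was thus present in kept regions too. These differences use the values that chose the regions and are a description.

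At day 12, the library that the rule did not use, the transient regions were at an intermediate level. Of the 2757 regions, 544 (19.7%) still had at least 100 normalized counts, against 23.3% of all autosomal regions and 79.3% of those open at days 8 to 10. Another 2197 had 25 to below 100, and 16 (0.580%) were below 25. Below 25 were 29.2% of all autosomal regions and 0.0444% of those open at days 8 to 10 (21 regions, the 16 included). Day 12 lay below each of days 8, 9 and 10 in 2736 regions, and above both MEF day 0 and iPSC in 2754. The median log2 difference from day 10 to day 12 was -1.24 (quartiles -1.49 and -0.98), where that of all autosomal regions was -0.07 and that of regions open at days 8 to 10 was -0.34. It was negative in 2756 of the 2757 regions, in 53.1% of all autosomal regions and in 71.9% of those open at days 8 to 10. Of these open regions, 3 sets were nearest to the transient ones. Those closed in iPSC had 99.7% negative at 25 to below 100 in MEF day 0, and 99.7% at 100 or more. Those closed in MEF day 0 and at 25 to below 100 in iPSC had 99.1%. The direction of change was thus not particular to transient regions. A loss of at least 4-fold from day 10 to day 12, with at least 50 normalized counts in the higher library, was found in 82 regions (2.97%), against 0.237% of all autosomal regions and 0.286% of those open at days 8 to 10. This share was 10.1% with quantile normalization (0.889% of all) and 0.907% with a pseudocount of 10 (0.0376% of all). With a 2-fold threshold 2017 regions (73.2%) were lost, against 7.30% and 18.7%. The 3 nearest sets named above had 61.3%, 37.6% and 48.2% in the same order. Loss of this size was common in them too, though most frequent in transient regions. The loss by day 12 was therefore widespread among transient regions, and in most it lay between 2-fold and 4-fold. Since the rule asked for high values at day 10, this difference is not independent of the choice. When the regions were chosen without the day 10 library, which was tried only once the values were known, the median difference was -1.20 over 3851 regions.

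In single regions the day 12 value could be told from its neighbors in time by counting error alone in most cases. The exact 95% Poisson interval at day 12 lay below that at day 10 in 2688 regions (97.5%). This was so in 21.3% of all autosomal regions and 51.4% of those open at days 8 to 10. With fragments as the unit it was so in 2498 transient regions (90.6%), against 12.9% and 42.0%. With fragments as the unit, the day 12 interval lay above that in iPSC in 2301 regions (83.5%), against 11.5% and 30.2%. It lay above that in MEF day 0 in 2497 regions (90.6%), against 23.8% and 34.7%. With fragments this was so in 2015 (73.1%), against 14.4% and 29.4%. The rule held iPSC and MEF day 0 below 25, a limit that the regions set beside these did not share. Sets open at days 8 to 10 that shared only the iPSC limit had 89.2% and 95.6% above iPSC by fragments. Those that shared only the MEF day 0 limit had 86.6% and 99.1% above MEF day 0. Lying above the ends was not particular to transient regions. Most transient regions were thus neither as open as at day 10 nor closed at day 12.

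To compare with regions of other fates, all 47270 autosomal regions with at least 100 normalized counts at days 8, 9 and 10 were sorted by their MEF day 0 and iPSC levels. Regions closed in MEF day 0 had a median at day 12 of 67.5 normalized counts when closed in iPSC (the 2757 transient regions), 90.0 when at 25 to below 100 in iPSC (3044 partly kept regions) and 168 when at 100 or more in iPSC (2204 kept regions). The median log2 differences from day 10 to day 12 were -1.24, -0.98 and -0.31. The share with at least 100 normalized counts at day 12 was 19.7%, 41.2% and 86.2%. Day 12 was therefore ordered as iPSC was. Among the regions closed in iPSC, those open in MEF day 0 (2122 regions) had a median difference of -0.90, and those at 25 to below 100 in MEF day 0 (1851 regions) had -1.10. A 4-fold loss was found in 2.97% of transient regions, 0.526% of partly kept ones and 0.0454% of kept ones, 1 region. Among regions closed in iPSC it was found in 1.13% of those at 25 to below 100 in MEF day 0. For those open in MEF day 0 the share was 0.330%. With 1 library at each time point these differences could not be tested, and regions of 1 library are not replicates.

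**Figure D2:**
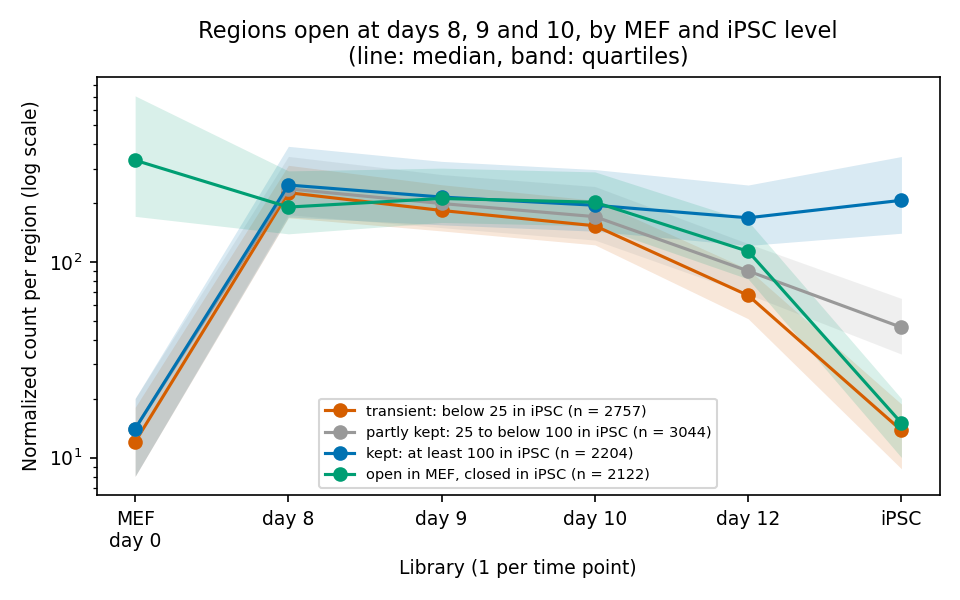
Median normalized count (line, log axis) and quartiles (band) in the 6 libraries for transient regions, for partly kept and kept regions, and for regions open in MEF day 0 and closed in iPSC. All 4 sets were chosen to have at least 100 at days 8, 9 and 10, and at day 12 the transient regions had the lowest median of the 4, 67.5, and the kept regions the highest, 168.

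The sets differed in their level at day 10, with a median of 153 normalized counts in transient, 171 in partly kept and 195 in kept regions. The comparison was therefore repeated within ranges of the day 10 level. From 100 to below 150, the median log2 difference to day 12 was -1.20 in 1323 transient regions, -0.85 in partly kept, -0.08 in kept regions and -0.84 in those open in MEF day 0 and closed in iPSC. From 150 to below 250, the values were -1.26, -1.0, -0.27 and -0.84 in the same order. At 250 and over, they were -1.29, -1.15, -0.58 and -0.98. The order of transient, partly kept and kept regions was the same in all 3 ranges. The quartiles of transient and kept regions did not overlap in any range, whereas those of transient and partly kept regions overlapped in all 3.

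**Figure D3:**
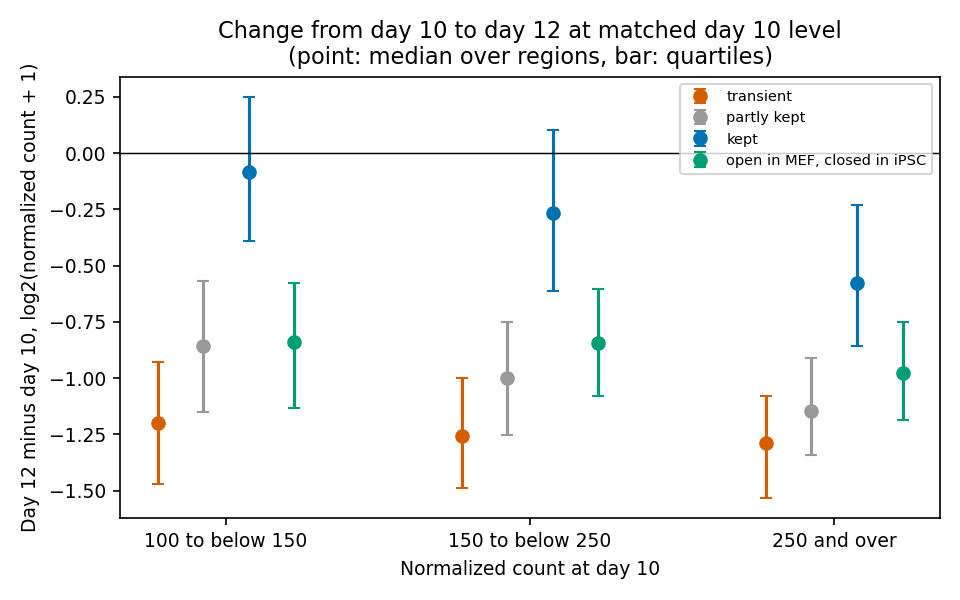
Difference from day 10 to day 12 in log2(normalized count + 1) within 3 ranges of the day 10 level, with points at the median over regions and bars from the lower to the upper quartile, which show spread over regions and not replicate error. Transient regions lay between -1.20 and -1.29 at the median, and kept regions between -0.08 and -0.58.

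How far closing and opening toward the iPSC state had advanced at day 12 depended on the scale. On the linear scale the median transient region had covered 62.9% of its distance from day 10 to iPSC. In the 2744 autosomal regions that were below 25 normalized counts up to day 10 and reached at least 100 in iPSC, the median distance covered was 24.2%. Under the other cutoffs and scalings tried, the 2 values ranged from 56.8% to 66.3% and from 21.2% to 32.1%. On the log2 scale the order was the opposite, with 33.1% covered in transient and 50.1% in these opening regions, and ranges of 27.9% to 37.2% and 47.8% to 58.5%. The choice of regions fixed the levels at both ends of the distance, and these shares depend on the size factors of 3 libraries.

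The transient regions also differed among themselves. Across the 2757 regions, the log2 level at day 12 had a Pearson r of 0.80 with day 10, 0.68 with day 9 and 0.42 with day 8 (Spearman rho 0.76, 0.62 and 0.34). It had an r of 0.20 with iPSC and 0.09 with MEF day 0, whose values were confined to a narrow range by the rule. These are correlations across regions of shared libraries and carry no p. The region's course between days 8 and 9 went with its later course. Of 3 equal groups of 919 regions, the one that fell most from day 8 to day 9 (median log2 difference -0.65) had a median difference from day 10 to day 12 of -1.42, and the one with the least fall or a rise (median 0.13) had -1.04. The 2 differences share no library, and their r was 0.44 (rho 0.44). Both use levels at days 8, 9 or 10, at which the rule required at least 100 normalized counts. They are therefore not independent of the choice of regions, and their correlation is a description. In kept regions the same correlation was 0.27 (rho 0.27) over 2204 regions. These groups had similar levels at day 10, with medians of 150.1 and 153 normalized counts.

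Regions that stayed open to day 12 had been more open before. The 544 regions with at least 100 normalized counts at day 12 had medians of 334 at day 8, 305 at day 9 and 276 at day 10, against 211, 169 and 141 in the 2197 regions at 25 to below 100. With 3 equal groups by level at days 8 and 9, the share still at 100 or more at day 12 was 5.88% in the lowest, 11.3% in the middle and 42.0% in the highest group. The log2 difference from day 10 to day 12 did not follow this order, since its median was -1.12 in the lowest group and -1.33 in the highest. Grouped by level, the share open at day 12 thus went with the level before. It also went with a smaller fall from day 8 to day 9, at 11.3% in the group that fell most and 27.7% in the group with the least fall or a rise, which also had the smaller fall from day 10 to day 12 given above. The 16 regions below 25 at day 12 had medians of 210 at day 8 and 116 at day 10.

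The most accessible transient region by mean level at days 8 to 10 was in row 29937 on chromosome 11. It had 2 reads in MEFs, then 1857, 1661, 1309 and 379 at days 8, 9, 10 and 12, and 16 in iPSC. This region kept many reads at day 12 although its ratio of day 12 to day 10, 0.330 in normalized counts (95% exact interval 0.294 to 0.370), was below the median ratio of 0.423. The region in row 92431 on chromosome 17 had 7, 1439, 1512, 1323, 424 and 9 reads in the same order. The 3 that followed, in rows 159378 and 167346 on chromosome 5 and row 122150 on chromosome 2, had 5 to 10 reads in MEF day 0, 1202 to 1516 at day 8, 329 to 356 at day 12 and 9 to 15 in iPSC. In all 5 the day 12 to day 10 ratio lay between 0.330 and 0.391, and none was near the closed level at day 12.

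Regions close to the median profile had fewer reads. The region in row 42528 on chromosome 12 had 6 reads in MEF day 0, then 257, 234, 204 and 64 at days 8, 9, 10 and 12, and 12 in iPSC. The region in row 62005 on chromosome 14 had 6, 257, 244, 165, 81 and 11, and the region in row 11738 on chromosome 1 had 7, 242, 255, 184, 91 and 12. Their day 12 to day 10 ratios were 0.358 (0.266 to 0.476), 0.559 (0.423 to 0.734) and 0.564 (0.434 to 0.728). The intervals of these 3 ratios overlapped, and all 3 lay below 1.

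At the extremes of the day 12 response, row 72836 on chromosome 15 had 12 reads in MEF day 0, then 347, 170, 167 and 16 at days 8, 9, 10 and 12, and 10 in iPSC, a ratio of 0.109 (0.0610 to 0.183). Rows 72932 on chromosome 15 and 40050 on chromosome 11 had ratios of 0.128 and 0.130, with 21 and 16 reads at day 12 against 5 and 13 in iPSC. In rows 72836 and 40050 the day 12 level of 14.4 normalized counts was near that in iPSC (12.5 and 16.3), whereas row 72932 had 18.9 at day 12 and 6.27 in iPSC. In row 176873 on chromosome 6 the reads were 1, 135, 158, 131, 118 and 9, with a ratio of 1.03 (0.794 to 1.33), the only one above 1. Rows 14994 on chromosome 1 and 43726 on chromosome 12 had ratios of 0.987 and 0.971, with intervals that included 1. In these 3 regions no change from day 10 to day 12 was detectable at this depth. All 6 were picked as extremes, so part of their distance from the rest is counting error.

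**Figure D4:**
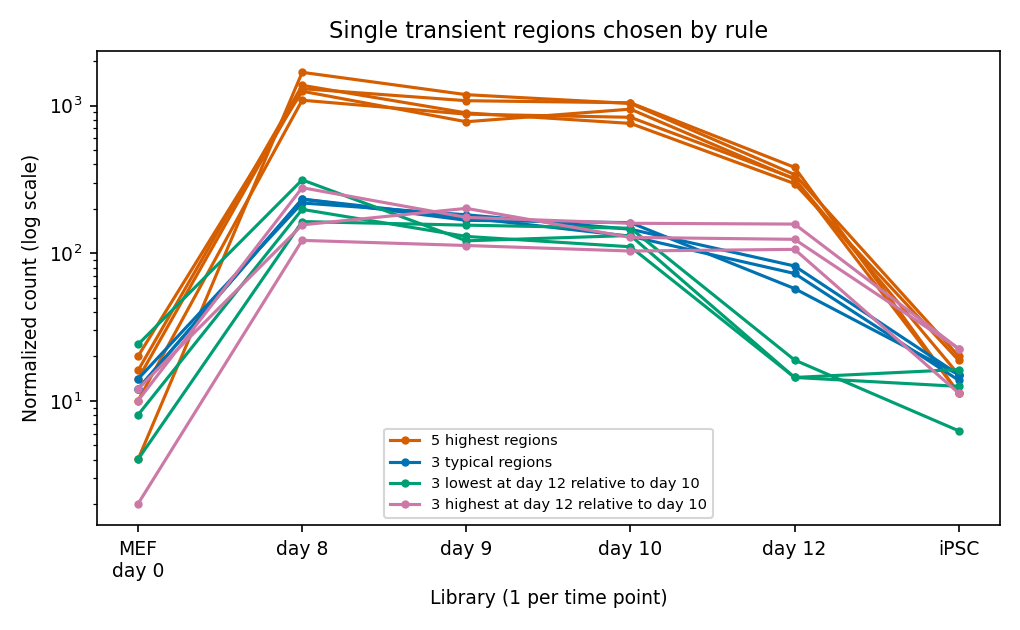
Normalized counts (log axis) of 14 single transient regions in the 6 libraries: the 5 with the highest mean level at days 8 to 10, the 3 nearest to the median profile, and the 3 lowest and 3 highest at day 12 relative to day 10. The 5 highest regions remained between 296 and 382 at day 12, above all the others shown.

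Transient regions were found on every autosome. They made up between 1.02% of the regions of chromosome 4 (142 regions) and 1.48% of those of chromosome 5 (214 regions). The exact 95% binomial intervals of these were 0.860% to 1.20% and 1.29% to 1.69%. Their fall to day 12 was similar on all autosomes, with median log2 differences from day 10 between -1.31 on chromosome 7 and -1.14 on chromosome 3.

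X-linked regions were left out of the rule. When the same cutoffs were applied to them, 34 of 5357 met them, or 0.635% (0.440% to 0.886%), a lower share than on any of the 19 autosomes. This followed from both steps of the rule. Of X-linked regions 2.84% were closed in MEF day 0 and open at days 8 to 10, against 3.28% to 4.04% on single autosomes. Of these 152 X-linked regions, 22.4% (16.0% to 29.8%) were closed in iPSC, against 29.5% on chromosome 3 to 40.1% on chromosome 18. The interval on chromosome 3, 25.3% to 34.0%, overlapped that of the X chromosome. X-linked values sum the active and the inactive X chromosome, and chromosomes of 1 library are not replicates. The X-linked regions as a whole rose from day 10 to day 12, by a median log2 difference of 0.46, where single autosomes had -0.12 to -0.03. The 34 X-linked regions that met the rule did not share this rise, since all 34 were lower at day 12 and their median difference was -1.28, within the range of the autosomes.

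**Figure D5:**
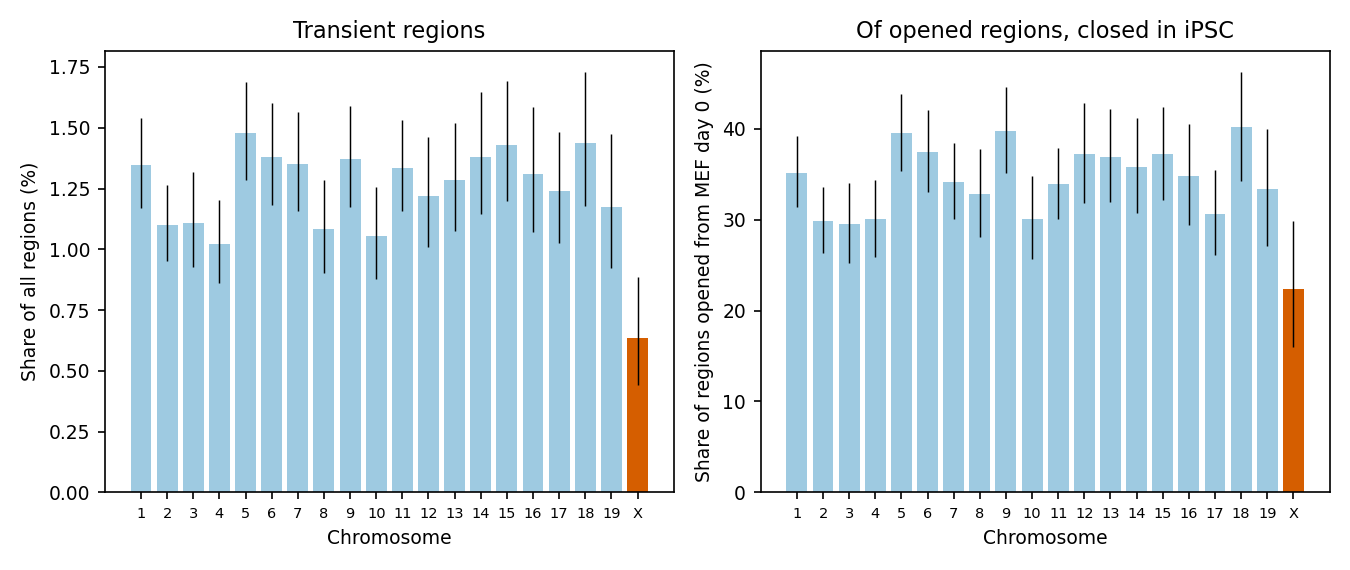
Left, transient regions in percent of all regions of each chromosome. Right, the percent of regions closed in MEF day 0 and open at days 8 to 10 that were closed in iPSC. Bars are shares, lines exact 95% binomial intervals (counting error only), and the X chromosome, in orange, had the lowest share in both panels (0.635% and 22.4%).

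Rows of the table run in blocks of 1 chromosome, and whether they are in genomic order within a block is not stated. Of the 2757 transient regions, 107 (3.88%) had another one in the next row of the same chromosome, against 1.26% of autosomal regions in the set. They formed 96 runs of 2 or more rows, with 203 regions in all and a longest run of 3. Kept regions had 3.68% in the next row, with a share of 1.01%, which is a similar excess. In the 5228 rows next to a transient region that were not in the set, the medians were 30.1 normalized counts in MEF day 0 and 28.8 in iPSC, with 59.7, 49.8 and 41.4 on days 8, 10 and 12. Over all autosomal regions they were 40.2 and 41.4 at these ends, with 45.2, 41.1 and 42.3 on the same days. Neighboring rows thus followed the transient regions weakly, with higher values at days 8 and 10 and lower ones at both ends.

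The number of transient regions depended on the scaling between libraries. With equal totals of autosomal reads 4741 regions met the same cutoffs, and with size factors from the 41841 regions open in every library 5711 did. All 2757 were among them in both cases. Quantile normalization gave 2553, of which 2082 were in common, that is 75.5% of the 2757 and 81.6% of the 2553.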

How the data were processed

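The authors processed paired-end Omni-ATAC reads with the ENCODE ATAC-seq pipeline on GRCm38/mm10, joined alignments and peaks with DiffBind 3.8 into 1 count matrix, divided counts by DESeq2 (1.21.22) size factors and deposited log2 values with a pseudocount of 1, not split by allele. All 6 columns were matched to sample titles. Normalized counts were 2 to the power of the deposited log2 value minus 1. Reads were recovered as multiples of the lowest value of each library (100% within 0.001 of a whole number). No count test was run, since each time point had 1 library.

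Regions closed below 25 and open from 100 normalized counts were selected as given, and 5 highest, 3 typical, 3 lowest and 3 highest at day 12 and 3 on either side of the cutoffs were named by rule. The regions and comparisons were chosen with earlier results of these data known. Log2 differences used a pseudocount of 1 and understate changes of low regions. Poisson and Clopper-Pearson intervals (95%) were exact and cover counting error only. Even read numbers from 4 to 20 were 1.06 to 1.38 times as frequent as the odd numbers beside them, so fragments, with 2 reads each, were also used as the unit. Alternatives were other cutoffs, 3 other scalings, thinning, another pseudocount, reference or fold threshold. Scripts were tested on simulated data. Python 3.11.15, numpy 2.4.6, pandas 2.3.3, scipy 1.17.1 and matplotlib 3.10.9 were used. Sequences, coordinates and genes of the regions were not analyzed here.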

Additional observations from a re-analysis of the deposited data

How the results depend on the processing

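The median log2 difference from day 10 to day 12 was negative under all alternatives, but the share closed in iPSC among regions chosen without iPSC lay on either side of the share of all autosomal regions. The count of transient regions was 978 with closed below 15 normalized counts, 6496 with closed below 50, 8143 with open from 50, 1273 with open from 150, 4741 with equal autosomal totals and 5711 with size factors from regions open throughout. In the same order, the median day 12 level was 62.1, 76.5, 41.4, 90.0, 81.7 and 71.8, and 56.7 with regions chosen without day 10. The median log2 difference from day 10 to day 12 was -1.29, -1.15, -1.12, -1.28, -1.06 and -1.22, and -1.32 with quantile normalization, -1.14 with a pseudocount of 10, -1.49 against the mean of days 8 to 10 and -1.20 without day 10. The share lost by 4-fold was 4.40% and 1.80% with the closed cutoffs, 3.73% with open from 50, 1.56% with equal totals, 10.1% with quantile normalization and 0.907% with a pseudocount of 10, and 73.2% were lost by 2-fold. The share closed in iPSC among regions chosen without iPSC was 21.7%, 51.2%, 42.9%, 29.2%, 31.6% and 36.5%, and 36.9% with quantile normalization. All autosomal regions had 24.2%, 55.1%, 36.1%, 36.1%, 36.1%, 39.9% and 34.8%, so that the difference turned from below to above with open from 50 and with quantile normalization. Regions open at days 8 to 10 had 7.14% to 26.2%, lower at each setting. The X-linked share was 0.261%, 1.44%, 2.09%, 0.261%, 0.933% and 1.14%, below all 19 autosomes each time. Equal totals raised the other libraries against MEF day 0 by 1.01 to 1.32 on the log2 scale. The share closed in MEF day 0 among regions chosen without it then became 58.6%, against 53.6% of all autosomal regions and 28.5% of those open at days 8 to 10. It was below that of all autosomal regions with closed below 15 (28.97% against 29.01%), closed below 50 (52.4% against 53.6%) and open from 150 (37.1% against 40.6%). The cause of these shifts was not tested beyond the settings themselves. No paired analysis was possible because each time point had 1 library. Relative counting error was largest at the closed levels, at a median of 6 reads in MEF day 0. That library was not the shallowest, and 25 normalized counts were 12.45 reads in it.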
